A study of Mus musculus with 4 samples.

Results

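The numbered RNA-binding motif genes of the mouse (symbols of the form Rbm followed by a number) were described in tumours of the B16-F10-luc-G5 line, a luciferase-carrying mouse melanoma line. The members were all genes with such a symbol in the array's annotation, except 1 Y-linked gene, which gave 33 genes and 69 probes of 17711 named genes and 46632 probes. Total RNA came from tumours dissected 10 days after cells had been injected under the abdominal skin of 2 mice that lack VAP-1 (VAP-1 -/-, here the knockout, replicates 1 and 2) and of 2 wild-type mice (replicates 2 and 3). VAP-1 is the cell surface amine oxidase encoded by Aoc3, and only the host mouse lacks it, because 1 cell line was injected into all mice. The sources used here give no strain, sex or age of the mice.

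Rbm proteins share the RNA recognition motif, a small fold that binds short stretches of single-stranded RNA. Many of them act in the spliceosome, the machine that removes introns, either as core parts or as regulators that favour or skip an exon. Others mark spliced mRNA for surveillance, guide the methylation of adenosines in RNA, hand nuclear RNA to the exosome for decay, or stabilise transcripts in the cold. Several Rbm genes are themselves regulated through alternative splicing, so different probes of a gene can report different transcripts.

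One bead array was hybridised per tumour, and values are normalized log2 signals, so 1 unit is a doubling. Where a gene had several probes, the one with the highest mean over the 4 arrays stands for it, and the other probes are given beside it. A probe was kept if its mean over the 4 arrays was above 6.07, the 40th percentile of all probes, and values below that lie near the floor of 5.65. Differences are knockout minus wild type with the standard error (SE) of the limma fit. Genes entered the family by symbol, but the family itself was chosen by measured values, the knockout minus wild type differences on these 4 arrays, so the differences of its members are descriptions and carry no test.

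Of all 27979 kept probes, 0 (0%) had a limma adjusted p under 0.05 and 4579 (16.4%) an unadjusted p under 0.05, and an intensity trend with robust prior gave 4 calls. The fits with 1 array left out, described at the end, used neither that trend nor that prior. The median unnormalized signal ranged from 64.8 to 68.3 on the knockout arrays and from 55.3 to 63.3 on the wild-type arrays. The melanocyte markers Pmel, Mlana and Dct, which mark the injected line, had log2 signals of at least 13.98 on all 4 arrays. All 10 listed melanocyte markers were kept, with a median difference of 0.06. Their groups did not overlap for 3 with higher means in the knockout (Sox10 by 0.84 ± 0.20, Tyrp1 and Pmel) and 3 with lower means (Oca2 by -0.61 ± 0.14, Gpr143 by -0.48 ± 0.13 and Tyr by -0.50 ± 0.23). Over all named genes, 23.4% were higher and 27.7% lower without overlap, so nothing is read from these counts. Aoc3, the deleted gene, did not separate the groups: its brighter probe had 7.29 and 7.16 in the knockout and 8.01 and 7.18 in wild type (-0.37 ± 0.30, limma adjusted p = 0.606), and its dimmer probe lay near the floor (-0.05 ± 0.12). How the probes lie relative to the deletion is unknown here, so these arrays do not check the genotype labels.

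At least 1 probe was kept for 28 of the 33 genes, and 46 of the 69 probes were kept. Rbm5, Rbm26, Rbm48 and Rbm39 were at least 1.5-fold higher in the knockout with groups that did not overlap, and Rbm42 and Rbm8a were at least 1.5-fold lower. These were 4 of 28 genes (14.3%) and 2 of 28 (7.14%), beside 6.61% and 5.46% of 13230 named genes. Over single probes, 6 of the 46 kept Rbm probes were at least 1.5-fold higher and 2 at least 1.5-fold lower without overlap, beside 5.31% and 4.02% of all kept probes. Of the remaining 22 genes, all differed by less than 1.5-fold. Without the threshold on size, 7 genes lay higher and 6 lower in the knockout without overlap, and 15 overlapped, where the shares over all named genes were 23.4% and 27.7%. The rule behind the family names this contrast, so nothing is read from these shares. The median difference was -0.05 over the 28 genes and -0.03 over all named genes, and the SD over genes was 0.52 in the family against 0.40 over all named genes.

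**Figure D1:**
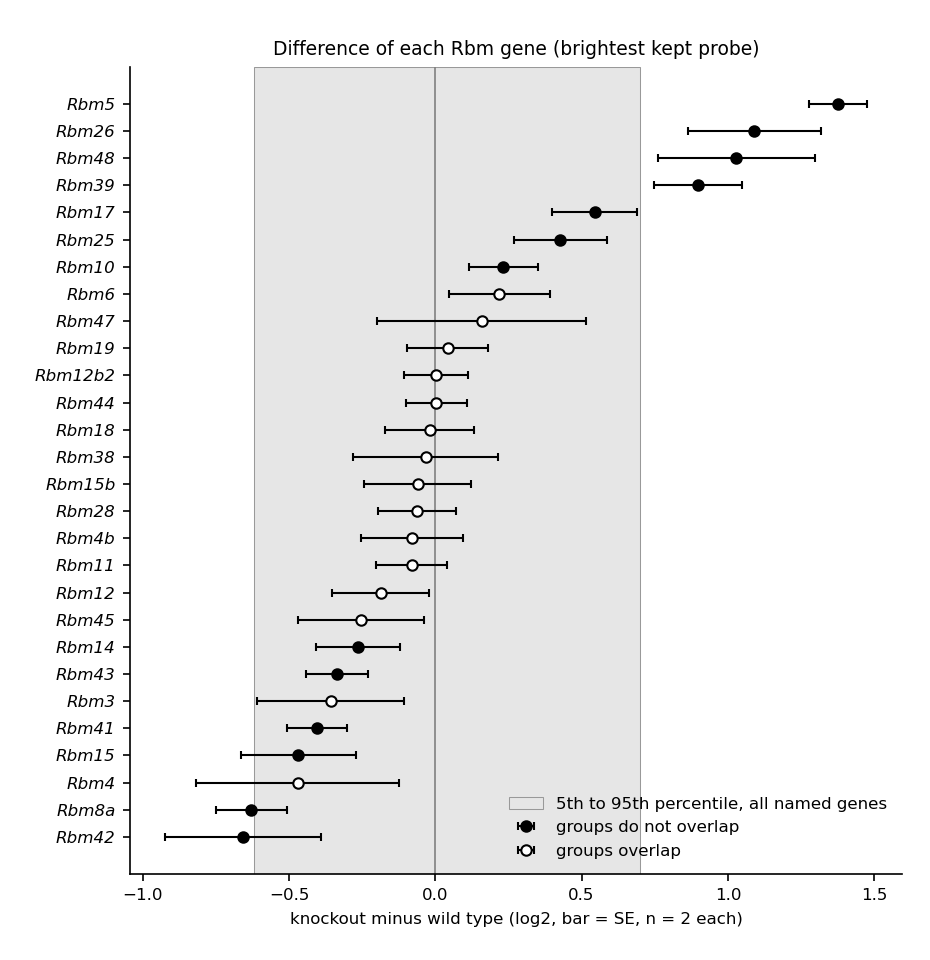
Knockout minus wild type difference (log2, horizontal axis) of the brightest kept probe of 28 Rbm genes, with the SE of the fit as bars (n = 2 arrays in each group). Filled points are genes whose groups do not overlap, and the grey band spans the 5th to 95th percentile of all named genes (-0.62 to 0.70). Rbm5, Rbm26, Rbm48 and Rbm39 lie to the right of the band, and Rbm42 and Rbm8a at its left edge.

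Rbm5 encodes a splicing regulator of early spliceosome assembly that, in human cells, controls exon choice in the death receptor gene FAS. Its brightest probe had log2 signals of 9.49 and 9.55 on the knockout arrays, against 8.13 and 8.15 on the wild-type arrays. The unnormalized signals of the same probe were 688.8 and 996.1 in the knockout and 209.9 and 237.5 in wild type. The arrays of each group lay within 0.1 of each other and the groups were far apart, a difference of 1.38 ± 0.10 (SE), or 2.59-fold. The second probe of Rbm5 had 6.43 and 6.37 in the knockout and 6.29 and 6.24 in wild type, a difference of 0.14 ± 0.10 close to the floor, and the third was not kept.

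Rbm5 has 2 relatives on the array that share its domain order. Rbm6 is its direct neighbour among the protein-coding genes of chromosome 9. Its brightest probe had 6.73 and 6.94 in the knockout and 6.81 and 6.43 in wild type, and the groups overlapped (0.22 ± 0.17). Among the 3 other kept Rbm6 probes, the groups did not overlap at the probe that differed by 0.64 ± 0.15 (6.89 and 6.56 in the knockout, 6.11 and 6.06 in wild type) or at the probe that differed by 0.43 ± 0.10, while the last differed by 0.03 ± 0.11. Rbm10, an X-linked repressor of exon inclusion that is mutated in human lung adenocarcinoma, had 9.27 and 9.19 in the knockout and 9.09 and 8.90 in wild type. Its groups did not overlap, but the gap was narrow (0.23 ± 0.12), and its second kept probe differed by 0.07 ± 0.11.

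Rbm39 encodes a splicing factor related to the U2AF subunits, also known as a coactivator of nuclear receptors and as the protein that sulfonamide degraders such as indisulam remove. Its brightest probe had 9.76 and 9.93 in the knockout, against 8.79 and 9.10 in wild type, a difference of 0.90 ± 0.15 (1.86-fold). A second, similarly kept probe had 8.49 and 9.26 in the knockout and 8.68 and 8.81 in wild type. There the knockout arrays lay on either side of the wild-type pair, and the difference was 0.13 ± 0.28. Without knockout replicate 1 the second probe differed by 0.52, and without knockout replicate 2 by -0.25. Rbm17, which helps to recognise the end of the intron through SF3B1 in human cells, had 10.44 and 10.56 in the knockout and 10.10 and 9.80 in wild type. Its single probe differed by 0.54 ± 0.15 without overlap, just under 1.5-fold, and by 0.39 to 0.69 with 1 array left out. Rbm25, a regulator of 5′ splice site choice, had 7.23 and 7.00 in the knockout and 6.83 and 6.54 in wild type (0.43 ± 0.16). Its second kept probe, near the floor, differed by -0.05 ± 0.10.

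Rbm26 encodes a zinc finger protein that, in human cells, accompanies the exosome adaptor that collects polyadenylated nuclear RNA. It had 9.38 and 8.77 in the knockout, against 7.96 and 8.01 in wild type, a difference of 1.09 ± 0.23 (2.13-fold). Both knockout arrays lay above wild type, knockout replicate 1 further than replicate 2. The second kept probe had 6.60 and 6.68 in the knockout and 6.18 and 6.63 in wild type (0.24 ± 0.18), with overlap. Rbm48, a factor of the minor spliceosome that handles a rare class of introns, had 8.20 and 7.60 in the knockout, against 7.09 and 6.65 in wild type (1.03 ± 0.27, 2.04-fold). It showed the same order, with replicate 1 above replicate 2, and its other kept probes differed by 0.15 ± 0.22 and -0.02 ± 0.10. Without knockout replicate 1, the array with the most skin and muscle signal, Rbm26 differed by 0.78 and Rbm48 by 0.73, and without knockout replicate 2 by 1.40 and 1.33.

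The promoters of the 4 genes that stood higher are shown because these members lay in the same direction. Each window holds the 250 bases before the annotated start of transcription, taken from RefSeq sequence of build GRCm38.p6 by gene symbol (27 of the 33 genes matched, with 32 start sites), and Rbm39 has a second start site that is not shown. Capitals mark the CCAAT box, read on either strand as CCAAT or ATTGG.
Rbm5, chr9:107771003-107771252, minus strand: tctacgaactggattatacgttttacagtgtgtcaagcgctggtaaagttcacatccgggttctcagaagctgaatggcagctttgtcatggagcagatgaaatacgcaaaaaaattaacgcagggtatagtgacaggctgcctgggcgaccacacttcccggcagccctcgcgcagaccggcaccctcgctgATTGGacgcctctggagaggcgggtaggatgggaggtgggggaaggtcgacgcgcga
Rbm26, chr14:105177315-105177564, minus strand: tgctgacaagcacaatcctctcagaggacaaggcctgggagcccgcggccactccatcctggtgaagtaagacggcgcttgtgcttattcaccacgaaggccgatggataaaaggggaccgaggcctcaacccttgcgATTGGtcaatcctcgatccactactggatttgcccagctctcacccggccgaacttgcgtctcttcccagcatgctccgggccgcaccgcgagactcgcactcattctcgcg
Rbm48, chr5:3596548-3596797, minus strand: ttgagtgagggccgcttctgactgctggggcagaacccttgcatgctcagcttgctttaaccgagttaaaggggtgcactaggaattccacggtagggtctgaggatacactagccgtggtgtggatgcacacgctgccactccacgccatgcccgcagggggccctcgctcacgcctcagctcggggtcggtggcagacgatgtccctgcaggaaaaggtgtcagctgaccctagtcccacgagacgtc
Rbm39, chr2:156180239-156180488, minus strand: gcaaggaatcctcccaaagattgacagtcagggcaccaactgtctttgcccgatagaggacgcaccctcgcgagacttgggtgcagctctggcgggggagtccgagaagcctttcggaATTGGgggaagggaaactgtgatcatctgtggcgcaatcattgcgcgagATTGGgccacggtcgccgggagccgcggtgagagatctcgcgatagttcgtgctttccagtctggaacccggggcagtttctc
A CCAAT box was found before Rbm5, Rbm26 and this start site of Rbm39, and none of the searched letters before Rbm48 or before the second start site of Rbm39. Motifs were searched on both strands: CCAAT occurred in 40.6% of the 32 family windows and 33.8% of all 32851 windows, the GC box GGGCGG in 31.2% and 32.7%, and the TATA box TATAAA in 15.6% and 12.4%. The median GC content of the windows was 58.2% in the family and 52.4% over all genes.

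**Figure D2:**
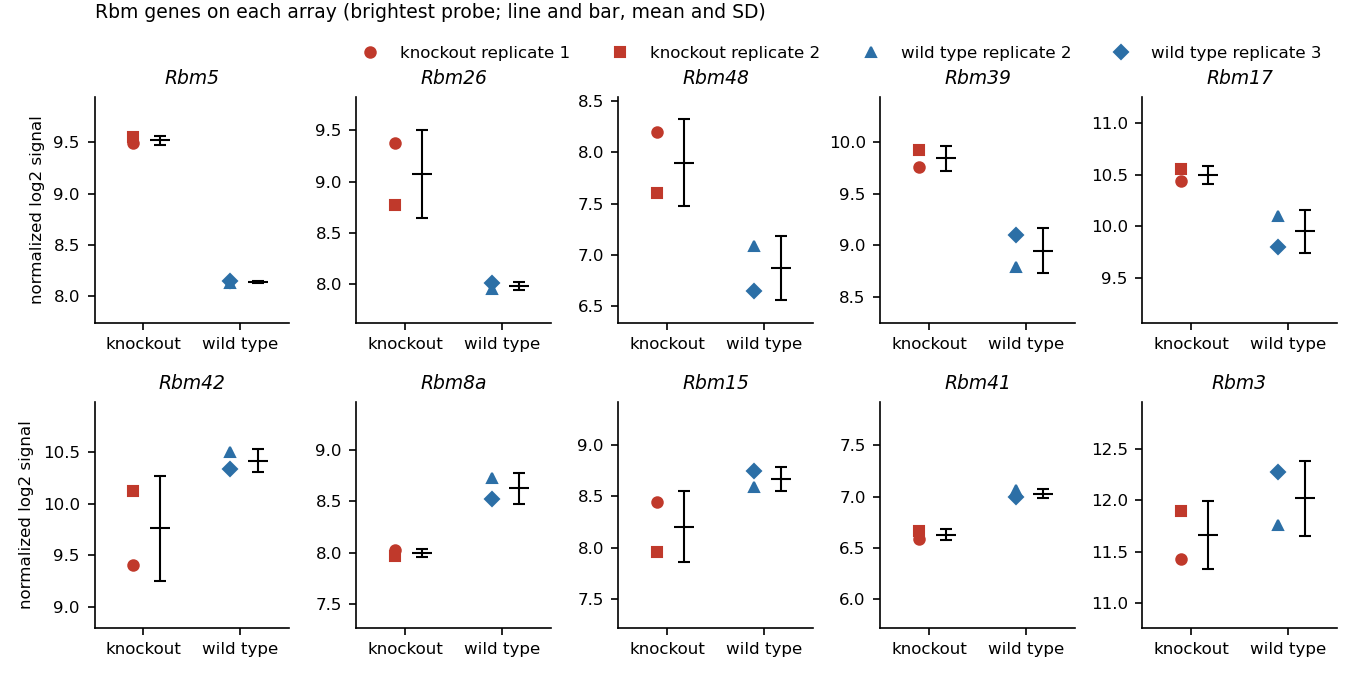
Normalized log2 signal (vertical axis, of the same span in every panel) of 10 Rbm genes on each array, knockout left and wild type right, with the mean and SD of the 2 arrays beside the points. The knockout points lie above the wild-type points for Rbm5, Rbm26, Rbm48, Rbm39 and Rbm17 and below them for Rbm42, Rbm8a, Rbm15 and Rbm41, and the groups overlap for Rbm3.

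Rbm42, whose protein binds hnRNP K, lay lowest in the family by its brightest probe. Its brightest probe had 9.40 and 10.12 on the knockout arrays, against 10.50 and 10.34 on the wild-type arrays, a difference of -0.66 ± 0.27 (1.58-fold lower). Knockout replicate 1 was far below wild type and replicate 2 just below it. Without knockout replicate 1 the difference was -0.30, and without knockout replicate 2 it was -1.02. The unnormalized signals overlapped, with 647.7 and 1457.2 in the knockout and 1105.1 and 1255.5 in wild type. The second Rbm42 probe had 9.79 and 9.98 in the knockout and 10.17 and 10.06 in wild type, also without overlap but by less (-0.23 ± 0.12). It was nearly as bright, and brighter in the knockout (mean 9.89 against 9.76) but not in wild type (10.12 against 10.42). The choice of probe thus rests on the wild-type arrays, and by the second probe Rbm42 would not pass 1.5-fold. The window before Rbm42 is shown for contrast with the genes that stood higher, with the CCAAT box (as ATTGG) and the GC box in capitals.
Rbm42, chr7:30650229-30650478, minus strand: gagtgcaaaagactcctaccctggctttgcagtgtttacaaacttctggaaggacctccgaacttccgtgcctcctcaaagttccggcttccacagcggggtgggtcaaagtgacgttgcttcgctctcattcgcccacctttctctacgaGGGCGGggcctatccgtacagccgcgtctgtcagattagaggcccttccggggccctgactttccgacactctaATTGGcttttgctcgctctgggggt

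Rbm8a encodes Y14, which with Magoh forms the core of the exon junction complex that marks spliced mRNA. It had 8.02 and 7.97 in the knockout, against 8.73 and 8.52 in wild type, a difference of -0.63 ± 0.12 (1.55-fold lower). The knockout arrays were close together and both lay below wild type, and the second Rbm8a probe was not kept. Before normalization the groups overlapped, with 259.7 and 323.3 in the knockout and 315.9 and 311.5 in wild type. Rbm15, an adaptor that brings the adenosine methylation complex to its targets, had 8.45 and 7.96 in the knockout and 8.59 and 8.75 in wild type (-0.47 ± 0.20). Its groups did not overlap, with a difference of -0.71 without knockout replicate 1 and of -0.22 without knockout replicate 2. With array medians scaled Rbm15 differed by -0.06. Its unnormalized signals overlapped, with 344.9 and 320.2 in the knockout and 285.6 and 374.4 in wild type. The related Rbm15b had 7.43 and 7.33 in the knockout, inside the wild-type range of 7.67 and 7.21 (-0.06 ± 0.18). Rbm41, tied to the minor spliceosome in human cells like Rbm48, went the other way from Rbm48: it had 6.59 and 6.67 in the knockout and 7.06 and 7.00 in wild type (-0.41 ± 0.10), and its second kept probe differed by 0.05 ± 0.10. Rbm43 (-0.34 ± 0.10) and the paraspeckle protein gene Rbm14 (-0.26 ± 0.14) were also lower without overlap, Rbm14 close to the floor, but Rbm43 differed by 0.06 with array medians scaled.

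Rbm3, a cold-inducible protein gene linked to mRNA translation, gave opposite answers at its 2 probes. The brightest probe had 11.43 and 11.90 in the knockout and 11.76 and 12.28 in wild type, with overlap (-0.36 ± 0.25). It differed by -0.10 without wild-type replicate 3, -0.13 without knockout replicate 1 and -0.62 without wild-type replicate 2. The other probe had 7.07 and 7.18 in the knockout, against 6.22 and 6.35 in wild type. There the knockout arrays were both higher, by 0.84 ± 0.11 (1.79-fold). The sources used here do not say which Rbm3 transcripts each probe reads. Cirbp, the closest cold-inducible relative, differed by -0.15 ± 0.13 (limma adjusted p = 0.632) and by 0.20 with array medians scaled, with 7.20 and 7.38 in the knockout and 7.34 and 7.55 in wild type.

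Of the 20 genes with several probes, 15 had more than 1 kept probe. Their probes spanned a median of 0.46 between the lowest and highest difference of a gene, where the median was 0.28 over 4594 named genes with several kept probes. For 5 of the 15 (33.3%) the kept probes went both ways, against 47% of those 4594 genes. Probes were closely matched for Rbm12 (-0.19 ± 0.17 and -0.24 ± 0.13), Rbm45 (-0.25 ± 0.22 and -0.29 ± 0.14) and Rbm4b (-0.08 ± 0.17 and -0.05 ± 0.21). They were widest apart for Rbm5, Rbm3 and Rbm48. The dimmer Rbm3 probe went the other way from the brightest one. The second Rbm5 probe was also higher without overlap, but by 0.14 ± 0.10 close to the floor. The other kept Rbm48 probes overlapped (0.15 ± 0.22 and -0.02 ± 0.10).

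**Figure D3:**
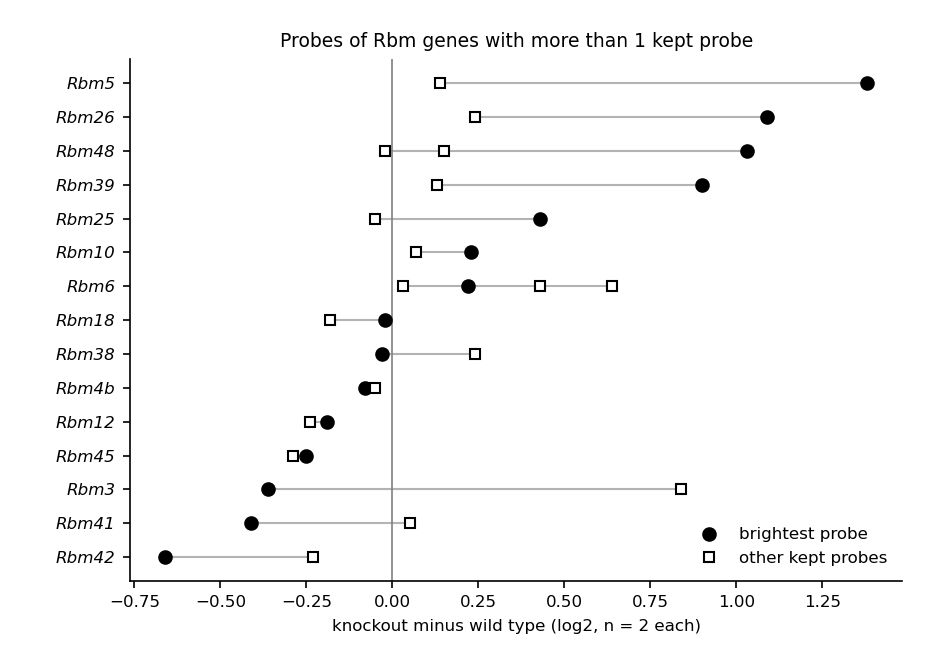
Knockout minus wild type difference (log2, horizontal axis, n = 2 arrays in each group) of every kept probe of the 15 Rbm genes with more than 1, the brightest as a filled circle and the others as open squares. The brightest probe lies furthest from 0 for Rbm5, Rbm26, Rbm48 and Rbm39, and Rbm3 has probes at -0.36 and 0.84.

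Several members sit side by side on a chromosome in assembly GRCm38.p6. Besides the pair of Rbm5 and Rbm6, Rbm4b, Rbm4 and Rbm14 adjoin each other on chromosome 19. Rbm4, a regulator of splicing and translation with a near-identical copy in Rbm4b, had 8.15 and 8.37 in the knockout and 8.24 and 9.21 in wild type. Wild-type replicate 3 alone stood apart, and the difference of -0.47 ± 0.35 was 0.02 without it and -0.96 without wild-type replicate 2. Probes of Rbm4 and Rbm4b may not separate the 2 copies fully. On chromosome 2, Rbm12 lies near Rbm39 with 2 coding genes between them, and the brightest Rbm12 probe overlapped (-0.19 ± 0.17) where that of Rbm39 did not. Rbm12b2, next to Rbm12b1 on chromosome 4, differed by 0.00 ± 0.11, and Rbm12b1 was not kept.

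The brightest probes of the remaining members overlapped between the groups. Rbm47, an RNA-binding protein of epithelia, had 7.83 and 7.09 in the knockout and 7.66 and 6.94 in wild type (0.16 ± 0.36), and its 4 other probes were not kept. Rbm38, a p53 target that binds the transcripts of cell cycle genes, had 8.39 and 8.37 in the knockout, between the wild-type values of 8.75 and 8.07 (-0.03 ± 0.25). Its second kept probe, near the floor, had 6.14 and 6.29 in the knockout and 5.94 and 6.01 in wild type (0.24 ± 0.11). The wild-type mean of that probe (5.97) lay under the filter level of 6.07. It was kept only through the knockout arrays, so nothing is read from its direction. Leaving out 1 array moved Rbm47 between -0.21 and 0.53 and Rbm38 between -0.37 and 0.31. Rbm24, a splicing regulator of muscle, was not kept, with 5.85 and 5.78 in the knockout and 5.68 and 5.94 in wild type. Rbm44, a germ cell gene, and Rbm11 differed by 0.00 ± 0.10 and -0.08 ± 0.12 near the floor. The nucleolar genes Rbm19 (0.04 ± 0.14) and Rbm28 (-0.06 ± 0.13) and Rbm18 (-0.02 ± 0.15) overlapped. Rbm7, Rbm22 and Rbm34 were not kept.

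Markers of other tissue in the tumour samples differed between the arrays, for skin mainly on 1 of them. In bulk RNA a change in the number of such cells and a change in RNA per cell cannot be told apart. Of 9 keratinocyte markers measured of 12 listed, 8 had higher means in the knockout. Their summed signal was 17796 and 7419 on the knockout arrays, against 6771 and 5850 on the wild-type arrays. The median marker lay above its wild-type mean by 1.26 on knockout replicate 1 but by 0.16 on replicate 2. Of 11 skeletal muscle markers of 12 listed, 10 were higher in mean, with sums of 11464 and 5902 against 4714 and 4465. Here the median marker lay above its wild-type mean by 0.78 on knockout replicate 1 and by 0.31 on replicate 2. Knockout replicate 1 was highest for both lists and also for Rbm26 and Rbm48, and lowest for Rbm42. Rbm5, Rbm39 and Rbm17 were instead highest on knockout replicate 2. Erythroid markers (8 measured of 11) had sums of 35223 and 20255 in the knockout against 70890 and 66570 in wild type. The 6 granulocyte markers measured of 9 had 519 and 664 against 2080 and 3301. The gaps in these sums came mostly from Hbb-bs (-1.68), Hbb-bt (-1.35) and Hba-a1 (-1.06), and from S100a8 (-3.27) and S100a9 (-2.40). Other members, dimmer, hardly differed: Klf1 by -0.00, Gata1 by -0.10, Slc4a1 by -0.11, Elane by -0.01 and Mpo by -0.09. These sums hold the added background offset of each probe. Flg, Dsp and Krtdap of the keratinocyte list, Mylpf of the muscle list, Hbb-b1 and Epb42 of the erythroid list and Ngp, Ltf and Ly6g of the granulocyte list had no kept probe. The part of these tissues in the Rbm differences was not tested.

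Genes that work with Rbm proteins, and RNA-binding motif genes outside the numbered family, were described from 7 lists of 91 gene symbols, of which 75 had a kept probe. By limma with Benjamini-Hochberg adjustment over all kept probes, 0 of the 75 passed, with a smallest adjusted p of 0.112. At an unadjusted limma p under 0.05 there were 12 higher and 8 lower (26.7% of genes at their brightest kept probe). The share over all kept probes was 16.4%, which counts probes and not genes, so nothing is read from the gap. Without wild-type replicate 2, 8 of the 75 passed the adjusted threshold, and without wild-type replicate 3, 1 passed. The median difference was 0.11, and 6 genes (8%) were at least 1.5-fold higher and 3 (4%) at least 1.5-fold lower without overlap, where all named genes gave 6.61% and 5.46%.

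The nuclear exosome list, which holds the partners of Rbm7 and the exosome adaptor tied to Rbm26 in human cells, had 8 measured members and a median of 0.18. Over 11 alternatives this median ran from 0.13 (without knockout replicate 2) to 0.54 (without wild-type replicate 2). It was 0.16 without wild-type replicate 3 and 0.53 with array medians scaled. Zfc3h1, the scaffold of that adaptor, had 11.48 and 10.84 in the knockout, against 10.09 and 9.89 in wild type (1.17 ± 0.24, limma adjusted p = 0.147). Srrt (0.87 ± 0.23, limma adjusted p = 0.191), which links the cap-binding complex to RNA decay, and the exosome nuclease gene Exosc10 (0.76 ± 0.10, limma adjusted p = 0.112) were also higher without overlap. The helicase gene Mtrex (-0.06 ± 0.11) and Zcchc8 (0.22 ± 0.26), the scaffold that Rbm7 binds, overlapped.

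The list around Rbm22, the Prp19 and activation complexes of the catalytic spliceosome, had a median of -0.31 over 13 measured members, of which 10 had lower means. It was 0.05 when array medians were scaled in place of quantile normalization, and -0.18 when 75th percentiles were scaled. Plrg1 had 10.81 and 11.02 in the knockout, against 11.58 and 11.56 in wild type (-0.66 ± 0.12, limma adjusted p = 0.136), and Bud31 differed by -0.62 ± 0.16 (limma adjusted p = 0.18). Snw1 and Bcas2 differed by -0.47 ± 0.13 and -0.47 ± 0.18. Prpf19, the ubiquitin ligase that names the complex, had a higher mean in the knockout (0.32 ± 0.18).

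Among 12 measured exon junction and nonsense-mediated decay genes (median 0.18, from 0.08 to 0.48 over 11 alternatives), Casc3, a shell protein of the complex that holds Y14, had 10.75 and 10.53 in the knockout, against 9.63 and 9.79 in wild type (0.93 ± 0.13, limma adjusted p = 0.116). Eif4a3, the helicase that clamps the complex on RNA, had a lower mean, as Rbm8a did (-0.45 ± 0.17, limma adjusted p = 0.302). Ncbp1 of the cap-binding complex differed by -0.39 ± 0.10 (0.01 with array medians scaled) and Smg5 by 0.34 ± 0.13. Magoh had no kept probe. Of 16 measured genes of branch point recognition (median 0.15, but -0.01 without knockout replicate 1, 0.07 without wild-type replicate 3 and 0.35 with array medians scaled), the U2 subunit gene Sf3a1 stood furthest from 0, with 10.08 and 10.12 in the knockout, against 10.84 and 10.84 in wild type (-0.74 ± 0.10, limma adjusted p = 0.112). Sf3b5 differed by -0.35 ± 0.12, U2surp by 0.50 ± 0.19 and Sf3a2 by 0.33 ± 0.13.

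The 12 measured genes that write, read or erase N6-methyladenosine had a median of -0.05, which was 0.22 with array medians scaled. The nuclear reader gene Ythdc1 (0.60 ± 0.11, limma adjusted p = 0.134), the methyltransferase gene Mettl3 (0.50 ± 0.13) and the demethylase gene Alkbh5 (0.50 ± 0.14) were higher without overlap. The writer component Cbll1 was lower (-0.55 ± 0.16), as Rbm15 was. With array medians scaled Cbll1 differed by -0.15 and Rbm15 by -0.06. Of 5 measured paraspeckle genes, Tardbp (0.46 ± 0.11, limma adjusted p = 0.175) was the 1 whose groups did not overlap. RNA-binding motif genes outside the numbered family (9 measured, median 0.22, from 0.10 to 0.57 over 11 alternatives) were led by Rbms1, with 9.20 and 9.56 in the knockout and 8.64 and 8.14 in wild type (1.00 ± 0.23, limma adjusted p = 0.161). Rbmx, an X-linked splicing protein gene, differed by -0.09 ± 0.10, and by 0.24 with array medians scaled. Of 6 genes that once carried an Rbm number, a list added after the files were seen, the epithelial splicing regulators Esrp2 (0.86 ± 0.40) and Esrp1 (0.74 ± 0.43) had 8.07 and 7.69 on the array of knockout replicate 1, the one highest in keratinocyte markers, and 6.92 and 6.50 on that of knockout replicate 2. On the wild-type arrays Esrp2 had 6.56 and 6.71, and Esrp1 had 6.13 and 6.58. Without knockout replicate 1 Esrp2 differed by 0.28 and Esrp1 by 0.15.

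**Figure D4:**
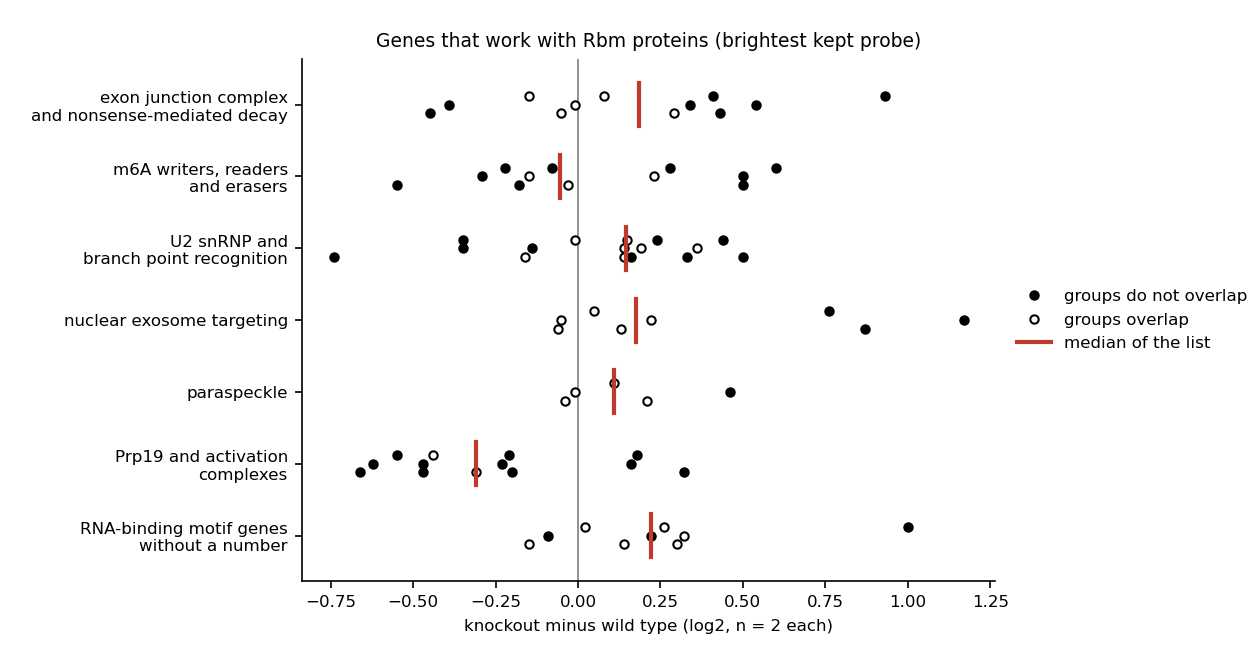
Knockout minus wild type difference (log2, horizontal axis, n = 2 arrays in each group) of the 75 measured genes of 7 lists, filled where the groups do not overlap, with the median of each list as a red bar. The lists hold genes that work with Rbm proteins, and RNA-binding motif genes outside the numbered family. Medians run from -0.31 for the Prp19 and activation complexes to 0.22 for RNA-binding motif genes outside the numbered family, and Zfc3h1 is furthest right at 1.17.

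The 6 Rbm genes past 1.5-fold kept their sign under all 11 alternatives of processing or of arrays left out, but for most alternatives this was fixed in advance. Genes picked because their groups do not overlap cannot change sign when 1 array is left out. The other filters leave their values as they are. Their differences without background correction equal those from the authors' processed values. Only the other scalings and the mean over kept probes changed the values in another way. Scaling array medians in place of quantile normalization moved the median of all named genes to 0.12, from -0.03, and then Rbm5 differed by 1.77 and Rbm8a by -0.20. Without wild-type replicate 2, Rbm42 (-0.58) and Rbm8a (-0.52) fell short of 1.5-fold and Rbm3 and Rbm4 were the lower genes. Without knockout replicate 1 the lower genes were Rbm8a and Rbm15. With array medians scaled, 7 Rbm genes were at least 1.5-fold higher without overlap, and 0 were lower. With the mean over all kept probes of a gene in place of the brightest, Rbm5 differed by 0.76, Rbm26 by 0.66, Rbm39 by 0.52 and Rbm48 by 0.39. Rbm5 and Rbm26 alone then remained at least 1.5-fold higher, and Rbm8a at least 1.5-fold lower.

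**Figure D5:**
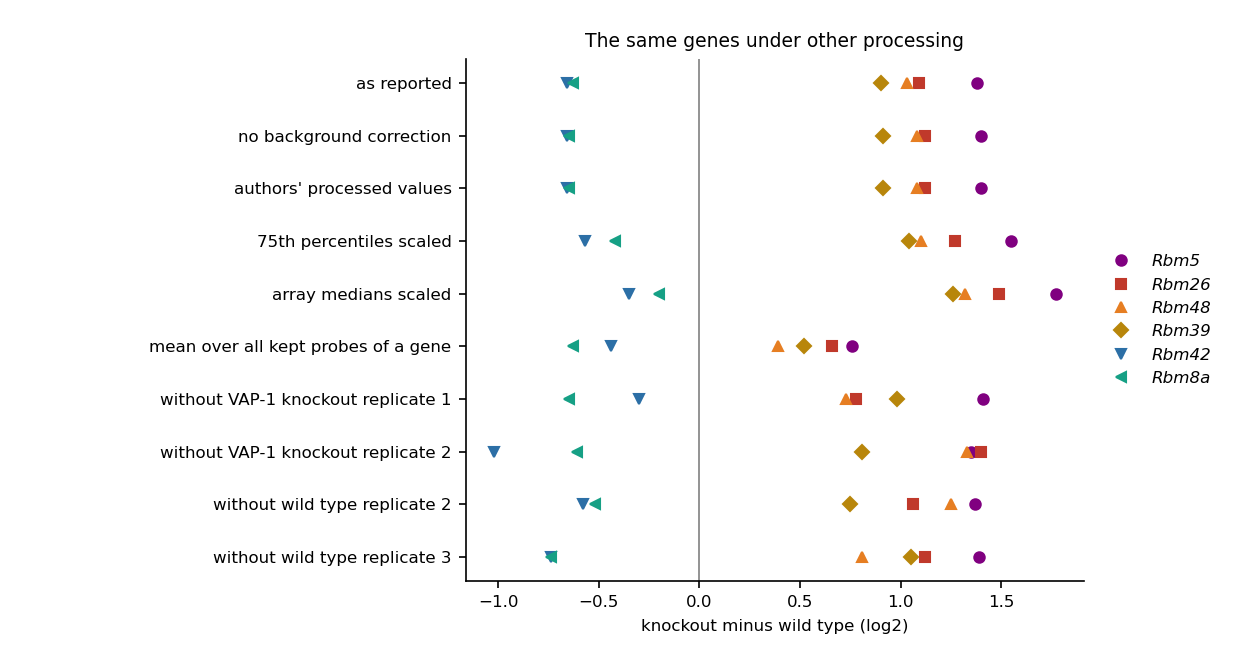
Knockout minus wild type difference (log2, horizontal axis) of the 6 Rbm genes past 1.5-fold, as reported (top) and under 9 of the 11 alternatives (the 2 other filters on dim probes, which do not change these values, are not drawn). Rbm5 stays between 0.76 and 1.77, and Rbm42 and Rbm8a stay below 0 throughout.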

How the data were processed

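Gene expression was measured on Illumina bead arrays, 1 per tumour, after 100 ng of RNA had been amplified with 14 h of in vitro transcription, per the labels' protocols. The authors deposited 2 tables of intensity: an unnormalized one, and a processed one whose columns equal the rank-wise means of the first, that is, quantile normalized on a linear scale. The sources used here give no array software and no slide or scan date, so no batch was tested.

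The unnormalized table's 46643 rows carry numbers that name no probe. All 46632 processed rows were paired with a single row through their 4 values (within 0.001 on the log2 scale), and 11 rows were left out. Symbols came from the platform annotation: 29976 probes had 1 symbol, 10 several and 16646 none.

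Intensities were background corrected (normexp, offset 50), quantile normalized and log2 transformed, and probes above the 40th percentile of mean signal were kept. lmFit and eBayes of limma 3.58.1 (R 4.3.3) compared 2 knockout with 2 wild-type arrays, two-sided, with Benjamini-Hochberg adjustment over 27979 probes (threshold 0.05). There were 2 residual degrees of freedom and 2.49 prior ones, so the precision is limited by the number of arrays. The fit was tested on simulated data, where it missed most changes of moderate size. Those data had independent errors, variances drawn from the fitted prior and few changed probes. Recovery on the real arrays, which also differ in tissue content, may therefore be different. Other steps ran in Python 3.11.15 with scipy 1.17.1.

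Members and lists were chosen with earlier results of these data known. Described in full were all Rbm genes past 1.5-fold without overlap and a fixed set (Rbm3, Rbm4, Rbm5, Rbm6, Rbm10, Rbm8a, Rbm15, Rbm17, Rbm24, Rbm38, Rbm39, Rbm47, and Rbm20, not analysed here), and up to 4 genes of smallest p per partner list. Other genes named with values were chosen after their values were seen.

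Marker lists covered melanocytes, keratinocytes, skeletal muscle, erythroid cells, macrophages, granulocytes, endothelium, adipocytes, and T and NK cells. The macrophage, endothelial, adipocyte and T and NK lists had median differences of 0.19, -0.35, 0.21 and 0.10. The melanocyte list had 0.06.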

Additional observations from a re-analysis of the deposited data

How the results depend on the processing

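Over all kept probes, limma called 0 under both other scalings, without background correction, with the authors' processed values and with either other filter, and 4 with an intensity trend and robust prior. Leaving out 1 array gave between 0 and 1667 calls, 1667 without wild-type replicate 2, 875 without wild-type replicate 3 and 0 without either knockout array, and between 0 and 8 calls among the partner genes. The lone array of a group was then assumed to vary like the other group. The median difference of the Rbm genes was 0.22 with array medians scaled, and it ran from -0.12 (without knockout replicate 1) to 0.00 (without knockout replicate 2) when 1 array was left out. The count of Rbm genes at least 1.5-fold higher without overlap was 7 with array medians scaled and 2 with the mean over kept probes, and 4 to 5 with 1 array left out. The count of those lower was 0 under both other scalings, 1 with the mean over kept probes and 2 to 3 with 1 array left out. Its members changed: Rbm3 and Rbm4 without wild-type replicate 2, Rbm8a and Rbm15 without knockout replicate 1, and Rbm3, Rbm42 and Rbm8a without knockout replicate 2. In these settings the cause was not tested. Rbm3 (from -0.62 to 0.24), Rbm4 (from -0.96 to 0.02), Rbm38 (from -0.37 to 0.41) and Rbm47 (from -0.21 to 0.53) changed sign in at least 1 of 11 alternatives. With array medians scaled, Rbm43 (0.06), Rbm12 (0.18), Rbm45 (0.08), Rbm15b (0.32), Rbm18 (0.33) and Rbm4b (0.26) also changed sign, and Rbm19 and Rbm28, close to 0, did so with 1 array left out. Without background correction, with the authors' processed values and with either other filter, the same Rbm genes passed 1.5-fold. Over the alternatives the median of the paraspeckle list ran from -0.05 to 0.32. No paired analysis was possible because the groups share only replicate number 2. Probes near the floor have compressed differences, and 23 of the 69 Rbm probes were too dim to be kept.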
